A study of Homo sapiens with 6 samples.

Results

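The 39 genes described here are target genes of the transcription factor ATF4 and of the unfolded protein response of the endoplasmic reticulum (ER). They were taken from the 19977 genes of the count files by their Ensembl identifier, which GENCODE 44 pairs with a symbol. Of these, 27 form an amino acid arm: 5 transcription factors of the bZIP family, 5 effectors, 9 genes of serine, one-carbon and sulfur amino acid metabolism, and 8 cytosolic tRNA synthetases. The other 12 form an ER arm of 3 genes for the regulator XBP1 and for ER-associated degradation and 9 chaperones and folding factors. RNA-seq was done on NCRM-1, a human induced pluripotent stem cell line made from CD34+ cord blood with episomal vectors, grown as aggregates for 4 days in vertical wheel bioreactors with 50% of the medium replaced on day 2. The 3 PEG and HS libraries came from Essential 8 (E8) medium with 10 mg/ml polyethylene glycol (PEG) and 0.1 µg/ml heparin sodium salt (HS), and the 3 Control libraries from E8 alone. The study chose both compounds to keep aggregates stable by limiting their fusion, and to hold pluripotency and growth at the same time. The comparison here asks how the stress response genes stood with both compounds. A free-text field of the labels describes PEG and heparin for all 6 libraries, and the treatment field was followed. All libraries came from this 1 line, and the labels read as 1 bioreactor per medium, so that medium and vessel cannot be told apart and the p-values measure only the spread between these libraries, which may be technical.

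In the integrated stress response, kinases that sense amino acid shortage, ER stress and other insults phosphorylate the initiation factor eIF2alpha, which slows translation in general but lets the ATF4 mRNA be translated. ATF4 protein then activates genes that take up and make amino acids, feed the serine and one-carbon pathway and charge tRNAs, together with the partner and feedback factors DDIT3, ATF3, TRIB3 and CHAC1. In the unfolded protein response, cleaved ATF6 and the XBP1 protein made after splicing by IRE1 activate ER chaperones and degradation factors, while the third sensor, PERK, joins the ATF4 branch. Growing cells express both sets of genes at a basal level. ATF4 is set largely by translation and XBP1 by splicing, and counts per gene measure neither.

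The promoter elements bound by ATF4 and by ATF6 are shown first, because they are the known sequence difference between the arms. RefSeq promoter windows (GRCh38.p14, 250 bases before to 50 bases after a start) were at hand for 23 of the 27 genes of the amino acid arm and all 12 of the ER arm, leaving ALDH1L2, SHMT2, PSPH and YARS1 without one. The C/EBP-ATF response element (CARE, searched as TGATGNAA on both strands), which ATF4 binds with a partner, was found in 7 genes of the amino acid arm and in HERPUD1. It occurs in 3.617% of all 35116 windows and in 4.457% of the 27305 genes that have a window. The ER stress response element (ERSE, CCAAT and CCACG with 9 bases between them), which NF-Y and ATF6 bind, was found in 6 genes of the ER arm and in none of the amino acid arm. It occurs in 0.077% of all windows and 0.092% of genes. The shorter ERSE-II (ATTGG and CCACG with 1 base between them), which ends in the same CCACG, was found in HERPUD1 and SDF2L1, against 0.054% of all windows and 0.07% of genes. The XBP1-type element TGACGTGG was found in no member, against 0.729% of all windows and 0.927% of genes. Its absence does not show that a promoter lacks a site for XBP1. No match of one element overlapped a match of another. The matches are given below in the direction of the element, 5′ to 3′, with the searched letters in capitals.
ASNS CARE: TGATGaAA
AARS1 CARE: TGATGcAA
GARS1 CARE: TGATGaAA
ATF3 CARE: TGATGgAA
HERPUD1 CARE: TGATGcAA
HSPA5 ERSE: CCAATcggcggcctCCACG
HSP90B1 ERSE, distal: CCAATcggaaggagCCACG
HSP90B1 ERSE, proximal: CCAATcgcgccgcaCCACG
CALR ERSE: CCAATgatggtcgaCCACG
PDIA6 ERSE: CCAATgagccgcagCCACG
XBP1 ERSE: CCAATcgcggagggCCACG
CRELD2 ERSE: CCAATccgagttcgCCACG
HERPUD1 ERSE-II: ATTGGgCCACG
SDF2L1 ERSE-II: ATTGGtCCACG
CHAC1, MARS1 and NARS1 carried the same CARE letters as AARS1. The whole windows of ASNS and AARS1 from the amino acid arm, of HSPA5 and HSP90B1 from the ER arm, and of HERPUD1, the single gene with an element of each arm, follow on the strand of the gene with the matches in capitals.
ASNS chr7:97872359-97872658, minus strand: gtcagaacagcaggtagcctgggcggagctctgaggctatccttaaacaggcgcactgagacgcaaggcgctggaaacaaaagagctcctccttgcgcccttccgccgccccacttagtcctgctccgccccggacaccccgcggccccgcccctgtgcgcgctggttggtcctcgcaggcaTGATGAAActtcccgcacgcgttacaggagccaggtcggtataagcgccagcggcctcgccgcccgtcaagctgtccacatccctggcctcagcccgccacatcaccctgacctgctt
AARS1 chr16:70289457-70289756, minus strand: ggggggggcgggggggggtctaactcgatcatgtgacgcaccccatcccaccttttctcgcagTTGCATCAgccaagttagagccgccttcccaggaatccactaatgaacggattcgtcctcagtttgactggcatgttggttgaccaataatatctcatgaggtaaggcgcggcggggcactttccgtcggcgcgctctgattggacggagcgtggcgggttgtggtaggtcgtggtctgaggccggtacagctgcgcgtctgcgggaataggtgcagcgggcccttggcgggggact
HSPA5 chr9:125241294-125241593, minus strand: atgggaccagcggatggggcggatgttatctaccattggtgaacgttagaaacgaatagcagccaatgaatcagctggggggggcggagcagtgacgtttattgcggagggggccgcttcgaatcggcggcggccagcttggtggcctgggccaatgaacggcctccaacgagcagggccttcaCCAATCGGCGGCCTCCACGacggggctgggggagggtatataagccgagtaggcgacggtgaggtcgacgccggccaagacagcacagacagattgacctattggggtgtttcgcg
HSP90B1 chr12:103930160-103930459, plus strand: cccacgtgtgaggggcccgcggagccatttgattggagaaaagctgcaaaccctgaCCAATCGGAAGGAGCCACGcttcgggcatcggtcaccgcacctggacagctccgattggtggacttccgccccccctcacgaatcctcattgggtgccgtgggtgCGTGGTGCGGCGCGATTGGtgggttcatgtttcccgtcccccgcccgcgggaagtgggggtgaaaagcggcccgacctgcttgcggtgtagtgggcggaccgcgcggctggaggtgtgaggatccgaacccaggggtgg
HERPUD1 chr16:56931892-56932191, plus strand: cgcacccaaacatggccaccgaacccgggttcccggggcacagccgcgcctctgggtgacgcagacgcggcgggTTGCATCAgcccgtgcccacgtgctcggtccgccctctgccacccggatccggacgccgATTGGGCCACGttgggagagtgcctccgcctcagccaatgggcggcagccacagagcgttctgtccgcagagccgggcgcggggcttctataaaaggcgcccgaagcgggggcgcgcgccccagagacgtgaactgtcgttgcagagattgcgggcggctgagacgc
The CARE of ASNS begins 68 bases before the start and the ERSE of HSPA5 66 bases before it. HSP90B1 holds a pair of ERSEs on opposite strands, 194 and 89 bases before its start. In HERPUD1 the ERSE-II lies 117 bases before the start and the CARE farther upstream. A match is a description of letters and not a measured binding site.

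The libraries held 26991279 to 36185138 counts, and levels are given as CPM, the counts of a gene relative to the TMM-scaled total of its library. All 39 members were among the 16505 genes with at least 10 counts over the 6 libraries, which were tested together with the quasi-likelihood F-test of edgeR. P-values were adjusted over all of them by Benjamini-Hochberg, and a gene was called at an adjusted p under 0.05. The label of pluripotent cells was checked on its markers: all 12 pluripotency genes on the list were expressed, with summed levels of 10694 to 10901 CPM with the additives and 10793 to 10987 CPM in Control. Single pluripotency genes differed between the media all the same, 5 of the 12 being higher and 4 lower, from NANOG at a log2 fold change of 0.55 to SOX2 at -0.59. Of 12 neuroectoderm markers, 10 were lower in PEG and HS, with summed levels of 574 to 613 CPM against 790 to 822 CPM. NES made up most of these sums, with means of 543 against 643 CPM and a log2 fold change of -0.24. The median log2 fold change of the list was -1.43. Of 9 tested mesoderm and endoderm markers 1 was lower (TBX6), and the list summed to 8.60 to 9.06 CPM against 10.2 to 11.3 CPM, with 7 of the 11 under 1 CPM in both media. Of 6 tested trophectoderm and amnion markers 3 were lower, and the list summed to 6.91 to 7.15 CPM against 14.8 to 15.9 CPM, with 4 of the 7 under 1 CPM in both. Of 11 immediate early and dissociation stress genes, 4 were higher, among them FOS at 0.53 and IER3 at 0.54, and 1 was lower, EGR1 at -1.91, and the list summed to 522 to 543 CPM against 490 to 495 CPM. Called were 75.0% of the pluripotency, 83.3% of the neuroectoderm and 11.1% of the tested mesoderm and endoderm markers. The shares were 50.0% for the tested trophectoderm and amnion markers and 45.5% for the immediate early and dissociation stress genes. Of all genes tested, 25.3% were called (12.2% higher and 13.1% lower). No marker on these lists was at 0 in all 6 libraries. The part of these shifts in the results below was not tested, and in bulk RNA fewer cells of a type and less RNA per cell cannot be told apart.

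With PEG and HS, 23 of the 39 amino acid and ER genes stood slightly higher than in E8 alone, and the changes were small in both arms. A further 2 were lower (SARS1 and DNAJB9) and 14 were not called. Over all genes tested, 25.3% were called, 12.2% higher and 13.1% lower, and among the 11424 genes at or over the level of the lowest member 31.8% were called, 16.4% higher and 15.4% lower. The log2 fold changes of the members ran from -0.22 to 0.43 with a median of 0.12, which is 8.71%, against a median of 0.0031 over all genes tested. The sign was positive in 34 members, and no member changed by 0.5 or more on the log2 scale. Well-counted genes were called more often in general, so the members were also read against genes of like level. Of the 20 members of at least 100 CPM, 15 were higher and 1 lower, where 40.3% of the 2229 genes at that level were called, 22.6% higher and 17.7% lower. Of the 19 members under 100 CPM, 8 were higher and 1 lower, where 29.7% of the 9195 genes from the lowest member's level up to 100 CPM were called, 14.9% higher and 14.8% lower. In 28 members each PEG and HS library lay above each Control library, in 2 each lay below, and in 9 the groups overlapped. Over all genes tested the groups did not overlap in 39.3%, 19.5% higher and 19.8% lower.

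**Figure D1:**
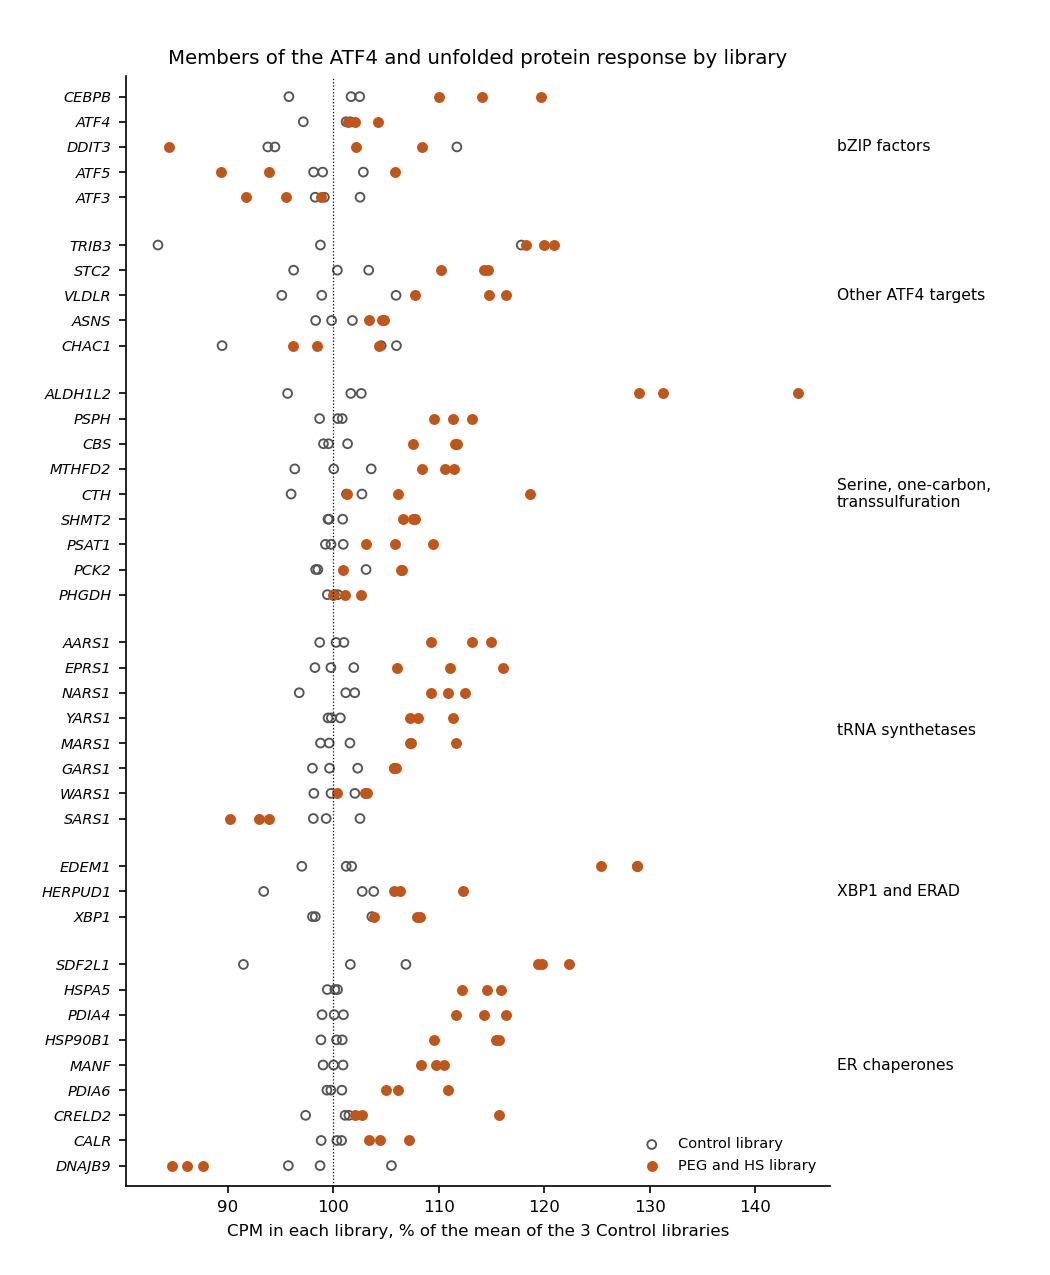
CPM of each of the 39 members (rows, by class) in each library as a percentage of the mean of the 3 Control libraries (x axis), with open circles for the Control and filled circles for the PEG and HS libraries. The filled circles lie to the right of the open ones in 28 members, farthest in ALDH1L2, to the left in DNAJB9 and SARS1, and among them in the other 9.

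Of the 5 bZIP factors, 1 was called. ATF4 itself, the activator of the amino acid arm (chr22:39519695-39522683, plus strand, GRCh38), was at 357, 355 and 365 CPM with the additives and at 354, 356 and 340.1 CPM in Control. The groups overlapped, and the difference of 0.04 ± 0.027 (log2 fold change ± SE) was not called (adjusted p = 0.36, 95% interval -0.02 to 0.10). DDIT3 (chr12:57516588-57521737, minus strand), which encodes CHOP, the factor linked to cell death under lasting ER stress, was at 5.01, 4.14 and 5.32 CPM with the additives and 4.63, 5.48 and 4.60 CPM in Control. It was the least counted member, with 935 counts in all, its groups overlapped, and its interval of -0.27 to 0.24 leaves room for a change of either sign (-0.02 ± 0.12, adjusted p = 0.933). ATF3, a stress-induced repressor, was at 19.8, 18.3 and 19.1 CPM against 20.5, 19.8 and 19.6 CPM. ATF5, a relative of ATF4 that is likewise set by translation, was at 21.4, 22.5 and 25.4 CPM against 24.7, 23.8 and 23.6 CPM. Neither was called, with -0.07 ± 0.054 (adjusted p = 0.423) for ATF3 and -0.05 ± 0.062 (adjusted p = 0.607) for ATF5. CEBPB, a bZIP partner of ATF4, was the factor of this class that was higher: it was at 22.5, 23.4 and 24.5 CPM with PEG and HS, above the 21.0, 19.6 and 20.8 CPM of Control, and differed by 0.20 ± 0.054 (adjusted p = 0.0148). Its call was lost without PEG and HS replicate 3 (adjusted p = 0.0678) or Control replicate 2 (adjusted p = 0.0661). DDIT3 shares 27.2% of its exon bases with MARS1 and ATF5 19.5% with NUP62 on the opposite strand. Of the 31-base words of ATF4, 26.4% also occur in other transcripts, a processed copy of ATF4 among them. These counts may therefore hold reads of the other genes. For the opposite-strand overlaps this depends on the counting, as the study prepared stranded libraries and the use of strand in counting is not given.

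Among the effectors, STC2 and VLDLR were higher and TRIB3, ASNS and CHAC1 were not called. STC2, a secreted glycoprotein induced by ATF4, was at 61.2, 63.5 and 63.7 CPM with PEG and HS and 55.8, 57.4 and 53.5 CPM in Control. That difference of 0.18 ± 0.038 was called (adjusted p = 0.00253), with the groups apart. VLDLR, the very low density lipoprotein receptor, was at 30.7, 28.8 and 31.1 CPM against 25.4, 26.4 and 28.3 CPM, which gave 0.17 ± 0.053 (adjusted p = 0.0245). Its call was lost with DESeq2 (adjusted p = 0.053) and without any one of PEG and HS replicates 1 (0.0855) and 3 (0.0837) and Control replicates 1 (0.103) and 2 (0.0778). TRIB3, a pseudokinase that restrains ATF4 and DDIT3, had the second highest log2 fold change of the arm at 0.25 ± 0.10. It was at 8.10, 8.21 and 8.27 CPM against 5.71, 8.06 and 6.76 CPM, so that Control replicate 2 almost reached the PEG and HS libraries, and was not called (adjusted p = 0.0936). Without that library its difference was 0.38 and was called (adjusted p = 0.0135). CHAC1, which breaks down glutathione, was at 18.3, 17.9 and 19.4 CPM against 19.5, 19.7 and 16.7 CPM, with overlapping groups and an interval of -0.15 to 0.15. ASNS, asparagine synthetase and the best known target of the amino acid response (chr7:97851677-97872542, minus strand), was at 136, 138 and 138 CPM against 134, 129 and 131 CPM. The groups lay apart but the 0.06 ± 0.028 was not called (adjusted p = 0.138). A long non-coding RNA that was not in the count files covers 49.3% of the ASNS exon bases on the same strand.

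The serine, one-carbon and sulfur amino acid genes had positive log2 fold changes in all 9 cases, and 6 of them were called higher, with a median of 0.12. ALDH1L2, the mitochondrial enzyme that oxidizes 10-formyltetrahydrofolate (chr12:105019784-105107643, minus strand), showed the highest log2 fold change of the 39 members. It was at 21.3, 19.0 and 19.4 CPM with PEG and HS and at 15.0, 14.1 and 15.2 CPM in Control. The groups were well apart and differed by 0.43 ± 0.062 (34.9% higher, adjusted p = 9.94e-05). The mitochondrial enzymes ahead of it in the pathway rose less: SHMT2, which moves a carbon from serine to folate, by 0.10 ± 0.025 (adjusted p = 0.00789), and MTHFD2, which oxidizes the carbon further, by 0.14 ± 0.032 (adjusted p = 0.00427). Their levels were 251 to 254 CPM against 234 to 237 CPM for SHMT2 and 152 to 156 CPM against 135 to 145 CPM for MTHFD2. Of the enzymes that make serine, the first, PHGDH, was at 511, 518 and 525 CPM against 509, 514 and 512 CPM and was not called (0.02 ± 0.024, adjusted p = 0.651), with overlapping groups. The next step, PSAT1, was at 329, 320.3 and 340.0 CPM against 310.0, 308 and 314 CPM, all PEG and HS libraries above all Control libraries (0.09 ± 0.028, adjusted p = 0.033). PSPH, which completes serine, was at 41.6, 43.0 and 42.3 CPM against 37.5, 38.3 and 38.1 CPM (0.15 ± 0.039, adjusted p = 0.00878). The call of PSAT1 was lost with upper quartile scaling (adjusted p = 0.0615) and without any one of PEG and HS replicates 1 (0.0801) and 3 (0.128) and Control replicates 1 (0.104), 2 (0.101) and 3 (0.0521).

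CBS, which joins serine to homocysteine (chr21:43053191-43076943, minus strand), was at 372, 386 and 386 CPM with PEG and HS and 344, 343 and 351 CPM in Control, a called difference of 0.14 ± 0.026 (adjusted p = 0.000986). A counted gene without a symbol in GENCODE (ENSG00000274276) holds 35.1% of the 31-base words of all CBS transcripts pooled. Reads could therefore have been split between the pair, and how shared reads were divided is not given. The copy held from 38.3% (PEG and HS replicate 3) to 42.0% (Control replicate 2) of the summed counts. That copy was at 240, 252 and 239 CPM against 243, 248 and 224 CPM, overlapped between the media and was not called (0.03 ± 0.036, adjusted p = 0.553). With both genes added, the sum was 612, 638 and 625 CPM against 587, 590 and 575 CPM and was still called (0.10 ± 0.026, adjusted p = 0.0107). CTH, the next enzyme towards cysteine, was at 16.8, 16.0 and 18.7 CPM against 15.2, 16.2 and 16.0 CPM and was not called (0.12 ± 0.067, adjusted p = 0.216). Neither was PCK2, the mitochondrial PEP carboxykinase, at 64.9, 61.5 and 64.8 CPM against 60.0, 62.8 and 59.9 CPM (0.07 ± 0.037, adjusted p = 0.216). The groups overlapped in both genes.

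The cytosolic tRNA synthetases, which load amino acids onto tRNAs, gave 6 genes higher, 1 lower and 1 not called. AARS1, for alanine, was at 363, 376 and 382 CPM with PEG and HS and 328, 336 and 333 CPM in Control, and had the highest log2 fold change of the class at 0.17 ± 0.027 (adjusted p = 0.000255). EPRS1 (glutamate and proline), NARS1 (asparagine), YARS1 (tyrosine), MARS1 (methionine) and GARS1 (glycine) were higher by 0.15, 0.15, 0.12, 0.12 and 0.08 on the log2 scale, at adjusted p from 0.00109 (NARS1) to 0.0344 (GARS1). The call of GARS1 was lost with upper quartile scaling (0.0666) and without any one of PEG and HS replicates 1 (0.0856), 2 (0.0684) and 3 (0.0687) and Control replicates 2 (0.139) and 3 (0.0815). SARS1, for serine, went the other way. It was at 109.6, 105 and 108 CPM with PEG and HS, below the 116, 119.6 and 114 CPM of Control in every library, and fell by 0.11 ± 0.031 (adjusted p = 0.0139). That call was lost without PEG and HS replicate 2 (adjusted p = 0.0533) or Control replicate 2 (0.0607). WARS1, for tryptophan, was at 132, 129 and 132 CPM against 131, 128 and 126 CPM, with overlapping groups, and was not called (0.03 ± 0.029, adjusted p = 0.47).

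**Figure D2:**
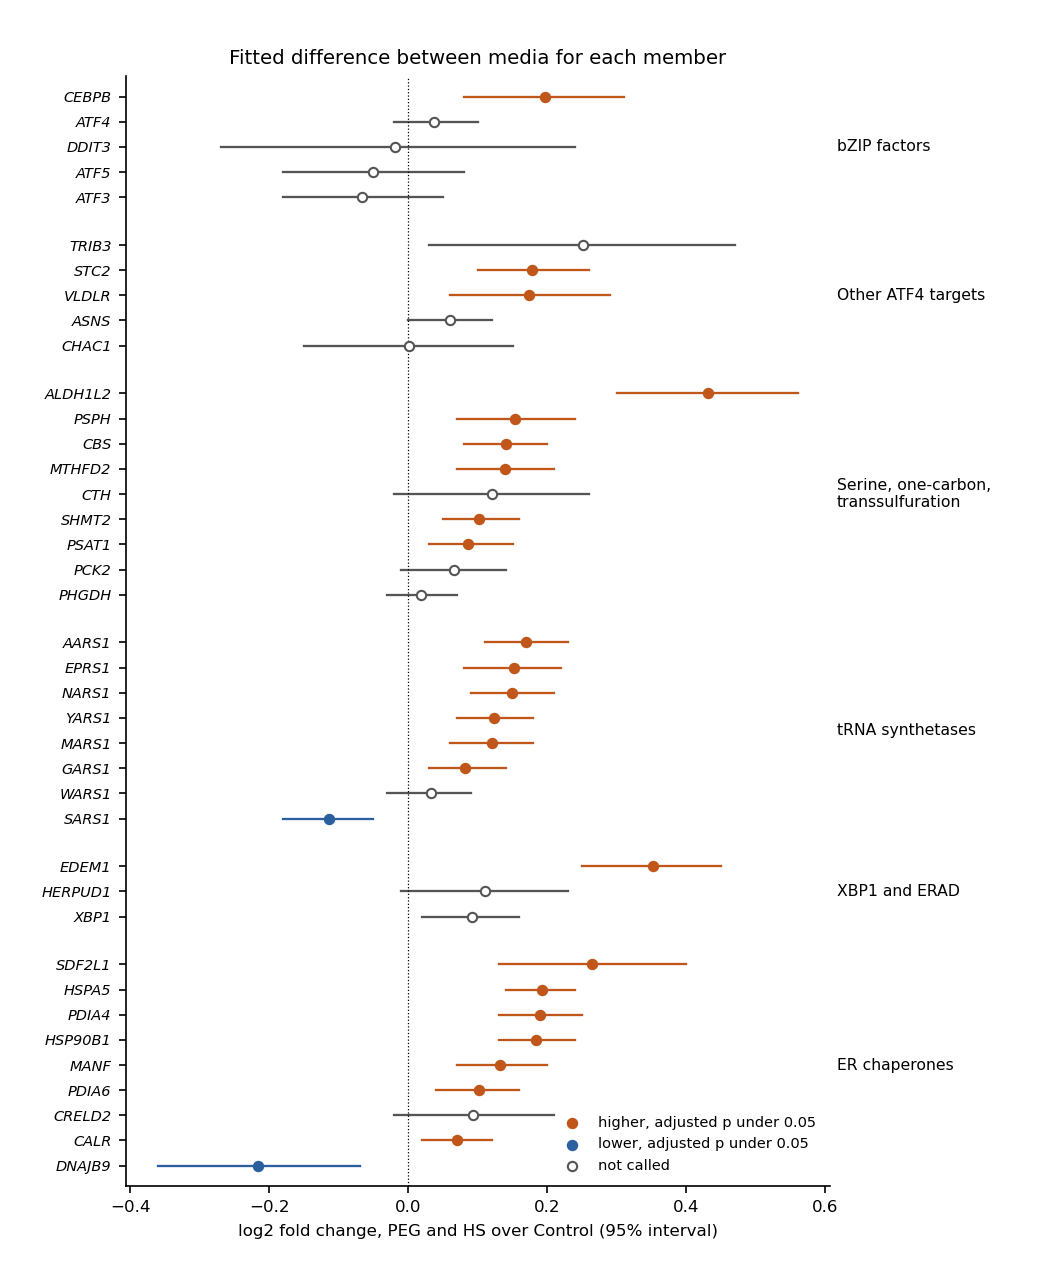
Log2 fold change of PEG and HS over Control (x axis) for each of the 39 members by class, with bars for the 95% interval and circles filled where the gene was called by edgeR at an adjusted p under 0.05. The called genes lie between 0.07 and 0.43 except SARS1 at -0.11 and DNAJB9 at -0.22, and the intervals of ATF4, DDIT3 and CHAC1 cover 0.

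In the ER arm, the 5 members of at least 100 CPM, all chaperones or folding factors, were higher with PEG and HS. In each of the 12 genes the libraries of the media lay apart, 11 higher and 1 lower. Over all genes tested they lay apart in 39.3%, 19.5% higher and 19.8% lower. At or over the level of the lowest member they lay apart in 5220 of 11424 genes, and at 100 CPM or more in 1169 of 2229. HSPA5, which encodes BiP, the main ER chaperone and the usual readout of the unfolded protein response (chr9:125234853-125241382, minus strand), was at 814, 797 and 824 CPM with PEG and HS and at 713, 712 and 707 CPM in Control. The lowest PEG and HS library was well above the highest Control library, and the difference of 0.19 ± 0.024 was called (14.2% higher, adjusted p = 2.5e-05). HSP90B1, which encodes GRP94, the ER form of HSP90, stood at 1174, 1112 and 1172 CPM against 1018, 1003 and 1024 CPM (0.18 ± 0.027, adjusted p = 0.000101). PDIA4, a disulfide isomerase, was at 398, 407 and 415 CPM against 353, 359.7 and 357 CPM (0.19 ± 0.026, adjusted p = 5.88e-05). These 3 genes moved by nearly the same proportion. Its relative PDIA6 (0.10 ± 0.027, adjusted p = 0.0117) and MANF, a secreted ER stress protein (0.13 ± 0.031, adjusted p = 0.00534), were also higher, by less. SDF2L1, a cofactor of BiP and its J proteins, was at 18.9, 19.0 and 19.4 CPM against 14.5, 16.1 and 16.9 CPM (0.26 ± 0.063, adjusted p = 0.00615). PDIA6 lost its call without Control replicate 1 (adjusted p = 0.0547), and 25.2% of its exon bases overlap ATP6V1C2 on the opposite strand.

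CALR, the lectin chaperone calreticulin, was the gene nearest to the threshold among those called. It was at 905, 914 and 938 CPM against 865, 882 and 878 CPM, a difference of 0.07 ± 0.024 (adjusted p = 0.0475). The call was lost in 10 of 14 alternatives, among them the removal of any one library (adjusted p = 0.06, 0.074 and 0.136 without PEG and HS replicates 1, 2 and 3, and 0.176, 0.0784 and 0.0913 without Control replicates 1, 2 and 3). CRELD2, a folding factor induced by ER stress, was at 28.9, 32.5 and 28.7 CPM against 28.4, 28.5 and 27.4 CPM and was not called (0.09 ± 0.054, adjusted p = 0.241). DNAJB9, a J protein that brings BiP to its clients and to IRE1, was the member of the ER arm that was lower. It was at 9.64, 9.48 and 9.81 CPM with PEG and HS and 10.7, 11.1 and 11.8 CPM in Control, with the groups apart and a difference of -0.22 ± 0.069 (adjusted p = 0.0311). The call was lost with DESeq2 (adjusted p = 0.132) and without any one of PEG and HS replicates 1 (0.0829), 2 (0.0826) and 3 (0.0539) and Control replicates 2 (0.055) and 3 (0.129).

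Among the genes for regulation and degradation, EDEM1 carried the largest change. EDEM1, which hands misfolded glycoproteins to ER-associated degradation (chr3:5187646-5219958, plus strand), was at 30.4, 30.4 and 29.6 CPM with PEG and HS and 24.0, 22.9 and 23.9 CPM in Control. The difference of 0.35 ± 0.047 (27.7% higher, adjusted p = 4.43e-05) was the highest of the ER arm. XBP1 (chr22:28794555-28800597, minus strand) was at 99.6, 95.8 and 99.9 CPM against 90.7, 90.5 and 95.7 CPM. The lowest PEG and HS library and the highest Control library differed by little, and the 0.09 ± 0.033 was not called (adjusted p = 0.0564), although it was with scaling to library size alone (adjusted p = 0.037), with a replicate block (0.033), and without PEG and HS replicate 2 (0.0425) or Control replicate 3 (0.0247). HERPUD1, a membrane part of the degradation machinery, was at 22.0, 20.8 and 20.7 CPM against 18.3, 20.1 and 20.3 CPM and was not called (0.11 ± 0.058, adjusted p = 0.19).

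The arms were close by some summaries and apart by others. Over all genes tested 25.3% were called, and 31.8% at or over the level of the lowest member. The amino acid arm had 15 genes higher, 1 lower and 11 not called (59.3% called), with a median log2 fold change of 0.12 and a mean of 0.10. The ER arm had 8 higher, 1 lower and 3 not called (75.0% called), with a median of 0.12 and a mean of 0.13. The difference of these medians, amino acid minus ER, was -0.0002. Split at 100 CPM, the order of the arms reversed. The 15 amino acid genes of at least 100 CPM had a median of 0.10 and the 5 ER genes 0.18. The 12 amino acid genes and 7 ER genes under 100 CPM had medians of 0.14 and 0.11. The split did not match levels: above it the amino acid genes ran from 112 (SARS1) to 515 CPM (PHGDH). The ER genes above it ran from 381 (PDIA4) to 1084 CPM (HSP90B1). Their log2 fold changes overlapped, at -0.11 to 0.17 in the amino acid arm and 0.07 to 0.19 in the ER arm. By library, the median of the amino acid genes, as a log2 ratio to the Control mean, was 0.093, 0.085 and 0.13 with PEG and HS and -0.003, 0.0062 and -0.005 in Control. The median of the ER genes was 0.14, 0.13 and 0.15 with PEG and HS and -0.012, -0.0005 and 0.012 in Control. In both arms each PEG and HS library stood above each Control library. Within a library, the amino acid median minus the ER median was -0.0445, -0.0478 and -0.0164 with PEG and HS and 0.009, 0.0067 and -0.017 in Control, so that the groups overlapped. Its means of -0.036 and -0.0004 differed by more than the pooled standard deviation of 0.016 between libraries of a medium. Whether the arms responded unequally was not tested. The arms differed in make-up: the bZIP factors had a median log2 fold change of -0.02, the effectors 0.17, the serine and one-carbon genes 0.12, the tRNA synthetases 0.12, the regulation and degradation genes 0.11 and the chaperones 0.13. ATF4, ATF3, DDIT3, CHAC1, TRIB3, CEBPB and STC2 are the 7 genes of the amino acid arm that ER stress is also known to raise. Of these 7, 2 were higher, with a median of 0.04 and values from -0.07 to 0.25. The 28.6% called is near the share over all genes tested. No member was called against a fold change of 1.5 with edgeR's glmTreat, and none had an unadjusted p under 0.05 in that test, where 264 of all genes tested were called. The difference of zero itself was called in 25 members with edgeR, 23 with DESeq2 and 25 with limma-voom.

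The promoter elements were found both in genes that were higher and in genes that were not called. Of the 8 members with a CARE, AARS1, GARS1, MARS1 and NARS1 were higher and ATF3, CHAC1, ASNS and HERPUD1 were not called. Of the 6 with an ERSE, HSPA5, HSP90B1, CALR and PDIA6 were higher, and XBP1 and CRELD2 were not called. Of the 2 with an ERSE-II, SDF2L1 was higher and HERPUD1 was not called. Of the 15 members with any of these elements, 9 were higher and 6 not called. Of the 20 members with a window but none of these elements in it, 10 were higher, 2 lower and 8 not called. Over all genes tested 25.3% were called, and 40.3% among genes of at least 100 CPM. These sets are small and were not matched by level, and whether an element goes with a call was not tested.

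**Figure D3:**
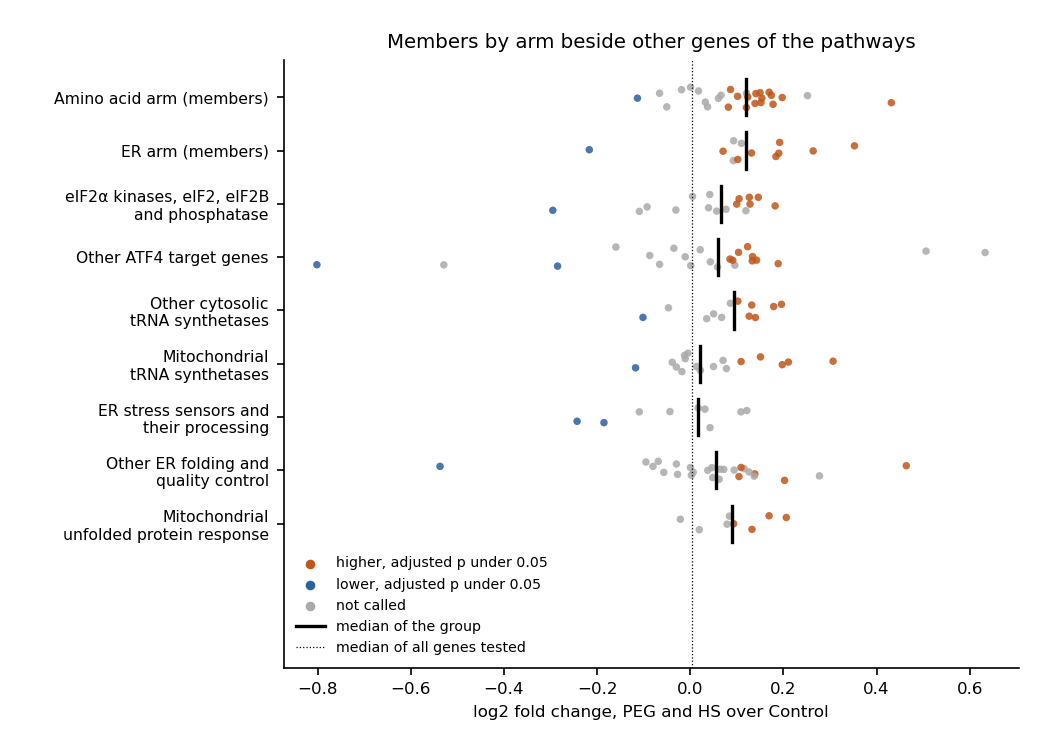
Log2 fold change of PEG and HS over Control (x axis) for each gene (points, coloured by the edgeR call and spread vertically for legibility) of the amino acid arm, the ER arm and 7 lists of other genes of these pathways. Thick bars mark the median of each group and the dotted line that of all genes tested, and the medians lie at 0.12 in both arms and between 0.02 and 0.09 in the other lists.

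Other genes of the same pathways, from lists written from general knowledge, had medians of 0.02 to 0.09. The counts below are to be read against the 25.3% called over all genes tested and the 31.8% at or over the level of the lowest member. Among genes of at least 100 CPM 40.3% were called, and many genes of these lists were at that level. The lists were not matched by level. Upstream, 16 genes of the eIF2alpha kinases, eIF2, eIF2B and the eIF2alpha phosphatase gave 6 higher and 1 lower (43.8% called), with a median of 0.07. EIF2AK4, which encodes the amino acid sensor GCN2, was at 226, 219.5 and 235 CPM with PEG and HS and 196, 198 and 205 CPM in Control (0.18 ± 0.031, adjusted p = 0.000427). PPP1R15B, the constitutive phosphatase subunit, was higher by 0.15 (adjusted p = 0.00804), while PPP1R15A, its stress-induced relative GADD34, was lower. PPP1R15A was at 14.4, 13.4 and 13.6 CPM against 17.0, 16.7 and 17.1 CPM (-0.30 ± 0.058, adjusted p = 0.00158). EIF2AK3, which encodes PERK, was at 36.3, 34.3 and 39.7 CPM against 38.9, 38.6 and 41.5 CPM and was not called (adjusted p = 0.156). EIF2AK3 was added to the genes named by rule after its values were seen.

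Of 23 other known ATF4 targets, 8 were higher and 2 lower (43.5% called), with a median of 0.06. DDIT4, which encodes REDD1, an inhibitor of mTORC1, was at 17.0, 18.6 and 17.2 CPM with PEG and HS and 29.5, 31.1 and 31.2 CPM in Control. It was lower by far more than any member changed, with -0.80 ± 0.053 (adjusted p = 2.25e-08). SLC7A3, a transporter of cationic amino acids, was also lower, at 95.3, 103 and 100.4 CPM against 118, 124 and 122 CPM (-0.28 ± 0.035, adjusted p = 2.15e-05). VEGFA, a growth factor of blood vessels, and XPOT, which exports tRNA from the nucleus, were higher by 0.19 (adjusted p = 0.00502) and 0.14 (adjusted p = 0.00169). Of 12 other cytosolic tRNA synthetases, 6 were higher and 1 lower (58.3% called) with a median of 0.09: IARS1 and VARS1 rose by 0.20 and 0.18, and QARS1 fell by 0.10. Of 17 mitochondrial tRNA synthetases, 5 were higher and 1 lower with a median of 0.02, a share called of 35.3% that is near the background, with MARS2 at 0.31, HARS2 at 0.21 and AARS2 at -0.12.

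Of 9 ER stress sensors and processing enzymes, 0 were called higher with edgeR, DESeq2 or limma-voom, also at an unadjusted p under 0.05. With edgeR 2 were lower, and with either other tool 1, and 22.2% called with edgeR is below the share over all genes tested. These were CREB3L2 (-0.24 ± 0.037, adjusted p = 0.000156) and CREB3L1 (-0.19 ± 0.065, adjusted p = 0.0492), membrane-bound relatives of ATF6. Of 26 other ER folding and quality control genes, 5 were higher and 1 lower, with a median of 0.06, and the 23.1% called is below the share over all genes tested. Abundant folding genes of this list were not called: CANX (668 against 666 CPM), P4HB (411 against 409), PDIA3 (698 against 675) and HYOU1 (410 against 397). Their log2 fold changes were 0.002, 0.006, 0.05 and 0.05. UGGT1 and SERP1, also over 100 CPM, were higher by 0.11 and 0.10. These genes were named outside the rule, after their values were seen. DERL3, a degradation factor, and ERO1A, an oxidase of the folding machinery, were higher by 0.46 and 0.20. EDEM2, a paralog of EDEM1, was at 16.5, 16.4 and 16.3 CPM with PEG and HS and 21.8, 26.8 and 22.6 CPM in Control, a difference of -0.54 ± 0.071 (adjusted p = 4.5e-05), so EDEM1 and EDEM2 moved in opposite directions. Of 8 genes of the mitochondrial unfolded protein response, 4 were higher (50.0% called), with a median of 0.09. HSPD1 and HSPE1, the mitochondrial chaperonin and its cofactor, rose by 0.21 (adjusted p = 6.65e-05) and 0.17 (adjusted p = 0.000178).

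**Figure D4:**
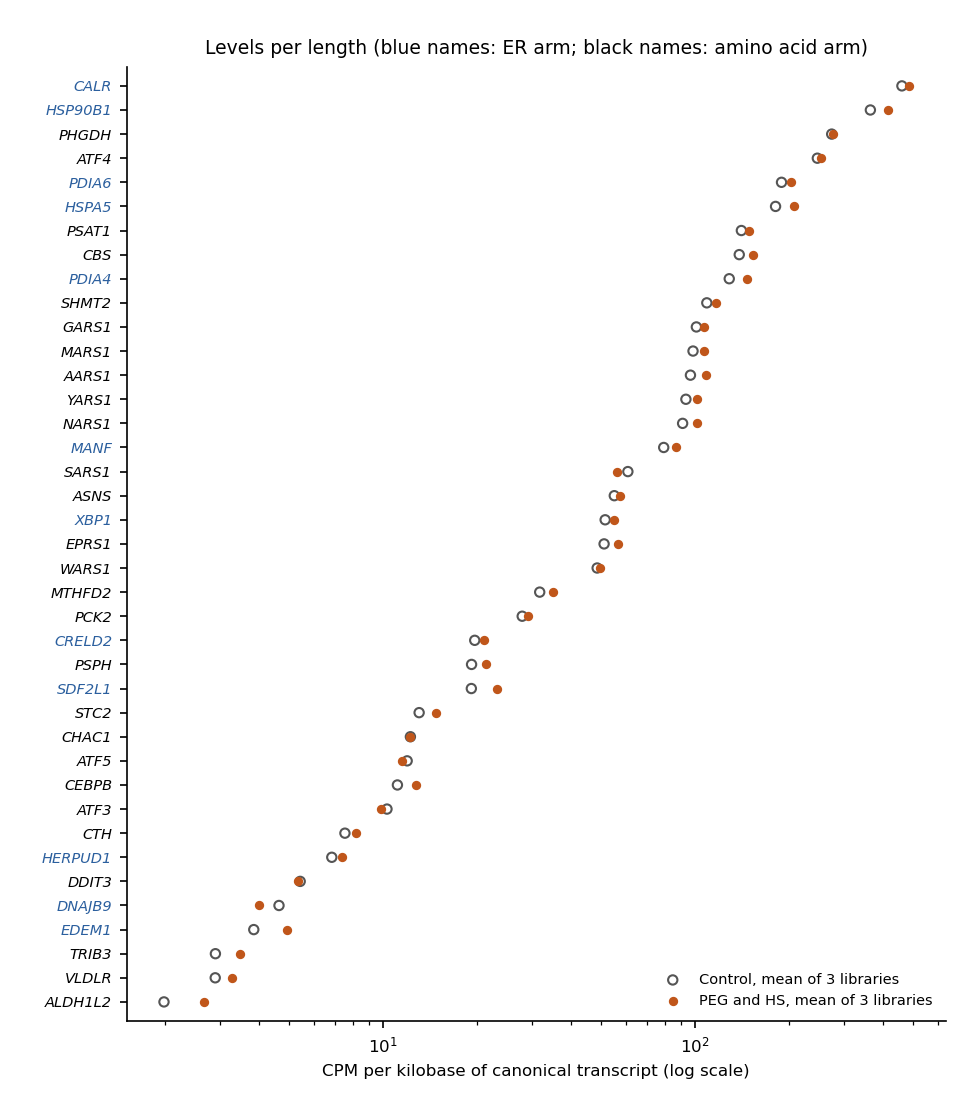
Mean level of each of the 39 members over the 3 libraries of Control (open) and of PEG and HS (filled), as CPM per kilobase of canonical transcript on a log axis, in the order of the Control level. Levels run from 460.3 CPM per kb for CALR to 1.99 for ALDH1L2 in Control, and the circles of a gene lie close together on this scale.

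Per kilobase of canonical transcript, the members differed far more from each other than between the media. CALR led in Control with a mean of 460.3 CPM per kb, followed by HSP90B1 at 365, PHGDH at 274, ATF4 at 247 and PDIA6 at 189. ALDH1L2 at 1.99, VLDLR at 2.90, TRIB3 at 2.91, EDEM1 at 3.86, DNAJB9 at 4.64 and DDIT3 at 5.43 CPM per kb were the lowest. ALDH1L2 and EDEM1, with the highest log2 fold changes of their arms, were thus among the genes of lowest level, and ATF4 mRNA among those of highest level. Length was that of the canonical transcript in GENCODE 44, which may differ from the transcripts these cells use.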

How the data were processed

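RNA of 3 PEG and HS and 3 Control libraries was sequenced by the authors, who deposited raw counts per gene, one library per file. Per the submitters' processing notes and the study's methods, reads were trimmed with Trim Galore 0.6.7 and mapped to GRCh38 with STAR 2.6.1 in an nf-core pipeline. The study prepared stranded libraries. The counting tool, its use of strand and the annotation release are not given in the sources used here. GENCODE 44 gave symbols, coordinates and lengths for 19916 of the 19977 identifiers.

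Genes with at least 10 counts in total were scaled with TMM. The media were compared without covariates by glmQLFit and glmQLFTest of edgeR (4.0.16, R 4.3.3). P-values of the 16505 genes were adjusted by Benjamini-Hochberg, and genes called at an adjusted p under 0.05. The study's own test was DESeq2, which was run as an alternative (version 1.42.0), as was limma-voom (limma 3.58.1). The common biological coefficient of variation was 3.12%, and with 26991279 to 36185138 counts per library small differences were resolved in well-counted genes. Counts of libraries of a medium varied beyond sampling noise (chi-square of 2.61 to 3.60 for each degree of freedom) and were kept as separate replicates.

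The members, lists and alternatives were chosen with earlier results of these data known, so members were described by counts and medians, with no test over a list. By rule, values in every library were given for ATF4, DDIT3, HSPA5, XBP1 and the 3 highest and 3 lowest log2 fold changes of each arm, other members by class and example, and up to 2 called genes at each end of a list. Alternatives were other scalings, filters and tests, a replicate block, a test against a fold change of 1.5, other make-ups of the arms and each library left out. Shared sequence was measured as 31-base words in GENCODE transcripts. The code was tested on simulated data with planted changes larger than that of any member. That test does not bear on the recovery of changes as small as those of the members.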

Additional observations from a re-analysis of the deposited data

How the results depend on the processing

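Of the 25 called members, 17 kept direction and call under all 14 alternatives run for each member and 8 lost the call under at least 1 (CEBPB, VLDLR, PSAT1, GARS1, SARS1, CALR, DNAJB9 and PDIA6). TRIB3 and XBP1 were called under at least 1 alternative. Against a fold change of 1.5, 0 members were called, 0 higher and 0 lower, and 264 of all genes in place of 4173. With DESeq2, 1 member was lower and 3367 of all genes were called. Upper quartile scaling gave the ER arm a median log2 fold change of 0.11, leaving out HERPUD1 gave 0.13 (0.1315), and leaving out the tRNA synthetases gave the amino acid arm 0.10 (0.1016). By means in place of medians, the arms differed by -0.029. Over the removal of single libraries, 19 to 22 members were called, 18 to 22 higher and 0 to 2 lower, 11 to 14 of the amino acid arm and 6 to 8 of the ER arm being higher. The medians ran from 0.095 to 0.13 (0.0948 to 0.1291) in the amino acid arm and from 0.12 to 0.14 (0.1159 to 0.135) in the ER arm, and their difference from -0.0272 to -0.0005. CHAC1, which was not called, changed sign to -0.0009 with DESeq2 size factors, -0.0101 with the upper quartile, -0.0006 with no filter, -0.0074 with a filter of 1 CPM and -0.0029 with DESeq2. Without single libraries CHAC1 ran from -0.0784 to 0.0464, ATF5 from -0.1262 to 0.0036 and DDIT3 from -0.0949 to 0.0737. The causes were not tested. Same-numbered libraries did not deviate together (r = -0.015, 0.028 and 0.06), not every library correlated best with its own number, and with the replicate number as a block 26 members and 4444 of all genes were called, XBP1 (adjusted p = 0.033) among them. Depth limits DDIT3, the least counted member.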
